A study of Mus musculus with 2 samples.

Results

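The mitochondrial ribosomal proteins are the nuclear-encoded proteins of the ribosome that works inside mitochondria. Their genes were taken as the rows of the deposited gene table whose symbol is Mrpl or Mrps followed by a number and at most 1 letter. This gave 77 of 22838 genes, of which 48 carry large subunit names (Mrpl) and 29 carry small subunit names (Mrps). Messenger RNA was sequenced from NIH3T3 cells, an established mouse embryonic fibroblast line, as 1 library from untreated cells and 1 from cells given ALA (100 µM, 16 h). ALA is not spelled out in the labels; in heme research it is the usual short form of δ-aminolevulinic acid, a heme precursor. The series title concerns SRRD, heme synthesis and circadian rhythms. The labels name no other allele or agent for either library and list the control as having received none.

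The mitochondrial ribosome translates the few messenger RNAs of the mitochondrial genome, whose products are core subunits of the respiratory chain and the ATP synthase. Its ribosomal RNAs are made from mitochondrial DNA, whereas all of its proteins are made in the cytosol and imported. Part of these proteins descend from the bacterial ribosome, and part were added in the mitochondrial lineage. The large subunit holds the peptidyl transferase centre and the exit tunnel, and the small subunit reads the messenger RNA. Some symbols mislead: the proteins of Mrps30 and Mrps18a (mL65 and mL66) sit in the large subunit, and that of Mrps36 belongs to the 2-oxoglutarate dehydrogenase complex. Heme A is a cofactor of cytochrome oxidase, some of whose subunits this ribosome makes.

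Promoters of 4 genes are shown here as examples, picked from near the ends of the range described below and from a pair of genes that share a start region. Mrpl36, Mrpl57 and Mrpl32 had the highest, the third highest and the lowest ratio of ALA to untreated. Mrpl16, with the second highest ratio, and Mrpl41, with the second lowest, had no match to the sites named below and are not shown. All 4 windows shown hold a match, but only 31 of 68 genes with a window had an NRF1, ETS or YY1 match. The examples therefore do not stand for the ends of the range. The promoter window of Mrps11 also holds the start of Mrpl46. Each line runs from 250 bases before to 50 bases after the RefSeq start on GRCm38.p6, 5′ to 3′ on the strand of the gene. Mrpl36 is at chr13:73330759-73331058 on the plus strand, Mrpl57 at chr14:57825989-57826288 on the plus strand, Mrpl32 at chr13:14612988-14613287 on the minus strand and Mrps11 at chr7:78782881-78783180 on the plus strand. Capitals mark matches, on either strand, to the consensus site of the transcription factor NRF1, to CCGGAAGT (an ETS site, the class read by GABPA), to AAGATGGCG (YY1) and to CACGTG (the E-box).
Mrpl36: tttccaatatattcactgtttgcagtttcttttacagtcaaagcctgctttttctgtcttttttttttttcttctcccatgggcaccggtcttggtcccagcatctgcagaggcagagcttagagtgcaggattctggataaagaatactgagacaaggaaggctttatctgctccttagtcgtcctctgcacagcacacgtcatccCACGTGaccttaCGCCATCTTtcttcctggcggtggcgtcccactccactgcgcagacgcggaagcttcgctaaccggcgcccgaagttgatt
Mrpl57: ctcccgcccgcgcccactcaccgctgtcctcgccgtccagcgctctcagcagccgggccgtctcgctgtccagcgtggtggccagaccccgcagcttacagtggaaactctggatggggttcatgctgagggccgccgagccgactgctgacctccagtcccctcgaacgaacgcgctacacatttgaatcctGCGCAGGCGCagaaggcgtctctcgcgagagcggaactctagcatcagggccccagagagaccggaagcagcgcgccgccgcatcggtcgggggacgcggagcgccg
Mrpl32: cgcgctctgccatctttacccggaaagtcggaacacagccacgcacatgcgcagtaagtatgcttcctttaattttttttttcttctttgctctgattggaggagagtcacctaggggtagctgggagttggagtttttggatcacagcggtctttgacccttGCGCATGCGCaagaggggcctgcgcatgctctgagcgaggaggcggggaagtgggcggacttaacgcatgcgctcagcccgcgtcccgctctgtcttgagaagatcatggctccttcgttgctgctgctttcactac
Mrps11: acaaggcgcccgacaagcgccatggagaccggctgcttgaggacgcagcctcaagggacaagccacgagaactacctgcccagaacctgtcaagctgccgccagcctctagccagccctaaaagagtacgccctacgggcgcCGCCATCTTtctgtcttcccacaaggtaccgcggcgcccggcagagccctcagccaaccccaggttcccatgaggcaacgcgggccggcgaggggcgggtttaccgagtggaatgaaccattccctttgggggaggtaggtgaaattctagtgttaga
The Mrpl36 window held an E-box and a YY1 match whose first bases lie 43 and 31 bases before the start. The matches of Mrpl57 and Mrpl32 were NRF1 letters, 57 and 87 bases before the start. In Mrps11 the match was to YY1, 108 bases before the start. A match describes the letters of the window and is no evidence that a factor bound there.

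Sequencing depth, estimated roughly from the smallest values, came to 21900000 reads for untreated cells and 31500000 for ALA. Deposited values are FPKM, by definition reads scaled to transcript length and to the mapped reads of the library, and they summed to 540963 and 512324. Whether the libraries were scaled further was not given, and the estimated depths would carry such scaling. Here a gene counts as measured if its FPKM averaged 1 or more over both libraries, and 10929 did. All 8 fibroblast markers were present in both libraries and 7 were lower with ALA, their summed level being 12686 and 11157 FPKM, with Vim at 2272 and 1896 FPKM and Col1a1 at 1047 and 980.2 FPKM. Among markers of other cell types, epithelial Epcam and Krt18 and endothelial Kdr were listed at 0 in both libraries, and Krt8 and Cdh5 were at 0 in untreated cells and at most 0.014 FPKM with ALA. Epithelial Cdh1 had 1.23 and 0.94 FPKM, and endothelial Pecam1 had 0.13 and 0.75 FPKM. The blood cell genes Cd14 and Lyz2 were measured, Cd14 at 13.1 and 4.69 FPKM and Lyz2 at 15.2 and 9.59 FPKM, while Ptprc, the general leukocyte marker, had 0.37 and 0.75 FPKM. The part of these markers in the results was not tested. Because each condition is a single library, differences below have no replicate behind them and no test was made. In RNA from many cells, fewer cells with a transcript and less of it per cell cannot be told apart.

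All 77 genes passed the filter, and each was far above it in both libraries. Levels ran from 6.21 to 204 FPKM in the untreated library and from 6.44 to 210.3 FPKM in the ALA library. The median was 28.2 FPKM untreated and 31.4 FPKM with ALA, against 13.7 and 13.6 FPKM over all measured genes. Mrpl13, a protein of the body of the large subunit, had the highest level, at 204 and 210.3 FPKM. It was followed by Mrps21 at 170.1 and 137 FPKM, and by Mrpl42 at 128 and 159 FPKM. Mrpl33 had 133 and 112 FPKM, and Mrpl52 had 116 and 119.9 FPKM. All 5 have a longest transcript shorter than 1316 bp, the median of the 77. Over the 77 genes the Spearman correlation of mean FPKM with the length of the longest transcript was -0.38, a description across genes that share both libraries.

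At the low end stood Mrpl19 at 6.48 and 6.63 FPKM, Mrpl35 at 6.21 and 8.998 FPKM, Mrpl41 at 10.5 and 6.44 FPKM, Mrpl24 at 9.29 and 8.81 FPKM and Mrpl17 at 8.21 and 10.3 FPKM. The highest mean level was 31.6 times the lowest. The order of levels was much the same in both libraries, with a Spearman correlation of 0.94 across the 77 genes. The medians of both subunits were alike, but levels reached lower and higher in the large subunit. The median of the 48 genes with large subunit names was 27.0 FPKM untreated and 30.2 FPKM with ALA, and that of the 29 with small subunit names was 28.3 and 31.7 FPKM.

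**Figure D1:**
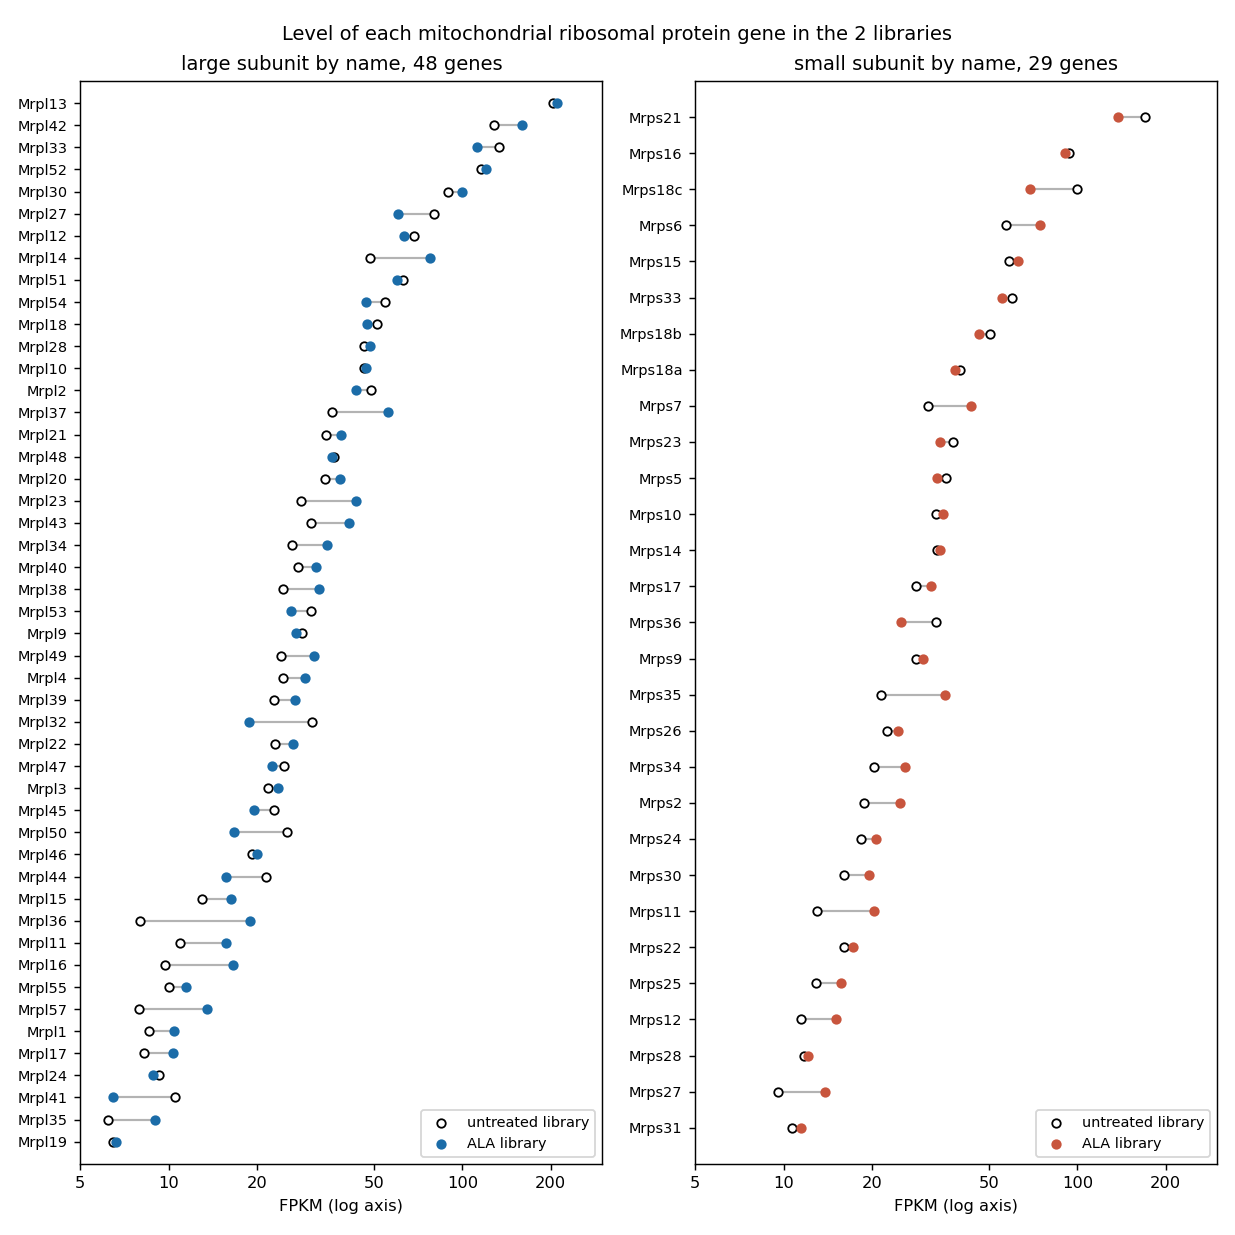
FPKM of each of the 77 genes in the untreated library (open circles) and the ALA library (filled circles) on a log axis, with the 48 large subunit names on the left and the 29 small subunit names on the right, in order of mean level. Most pairs of circles lie close together, and Mrpl36 has the widest gap, from 7.998 to 18.9 FPKM.

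Both libraries were compared by log2((ALA FPKM + 1)/(untreated FPKM + 1)), here called the log2 ratio. Counts past 1.5-fold or 2-fold are on this scale, where a gene of low level needs a larger plain ratio of FPKM to pass. The 77 genes leaned slightly toward the ALA library. Of them 51 were higher and 26 lower with ALA, that is 66.2% higher against 47.8% of all measured genes. Their median log2 ratio was 0.10, with quartiles of -0.10 and 0.33, against -0.02 for all measured genes. At least 1.5-fold higher on this scale were 8 of 77, or 10.4%, where 5.90% of all measured genes were. At least 1.5-fold lower were 2 of 77, or 2.60%, where 7.16% of all measured genes were. Mrpl50 lay just short of that mark, although its plain FPKM ratio was 1.51. Mrpl36 alone was at least 2-fold higher, where 1.49% of all measured genes were, and none was 2-fold lower, where 2.01% were. Scaled to equal library totals, 8 of the 77 were at least 1.5-fold higher and 1 lower, against 7.80% and 5.87% of measured genes.

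Genes of similar level had a median close to that of all measured genes, but smaller shares past 1.5-fold than their 5.90% and 7.16%. The 7473 other genes in the same range of mean FPKM had a median log2 ratio of -0.01, with 48.01% higher, 3.67% higher by 1.5-fold or more and 4.70% lower by as much. Their standard deviation across genes was 0.37, and that of the 77 genes was 0.34. Short transcripts scattered more: 694 other genes in this level range with transcripts under 1316 bp had a standard deviation of 0.54, with 7.06% higher by 1.5-fold or more and 13.5% lower by as much. Among the 77, those below the median length had a median log2 ratio of 0.09, and those at or above it had 0.12. By level, the 38 genes below the median had a median log2 ratio of 0.21 with 29 higher, and the 39 at or above it had 0.05 with 22 higher. Other genes in the same level ranges had medians of -0.01 and -0.02.

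**Figure D2:**
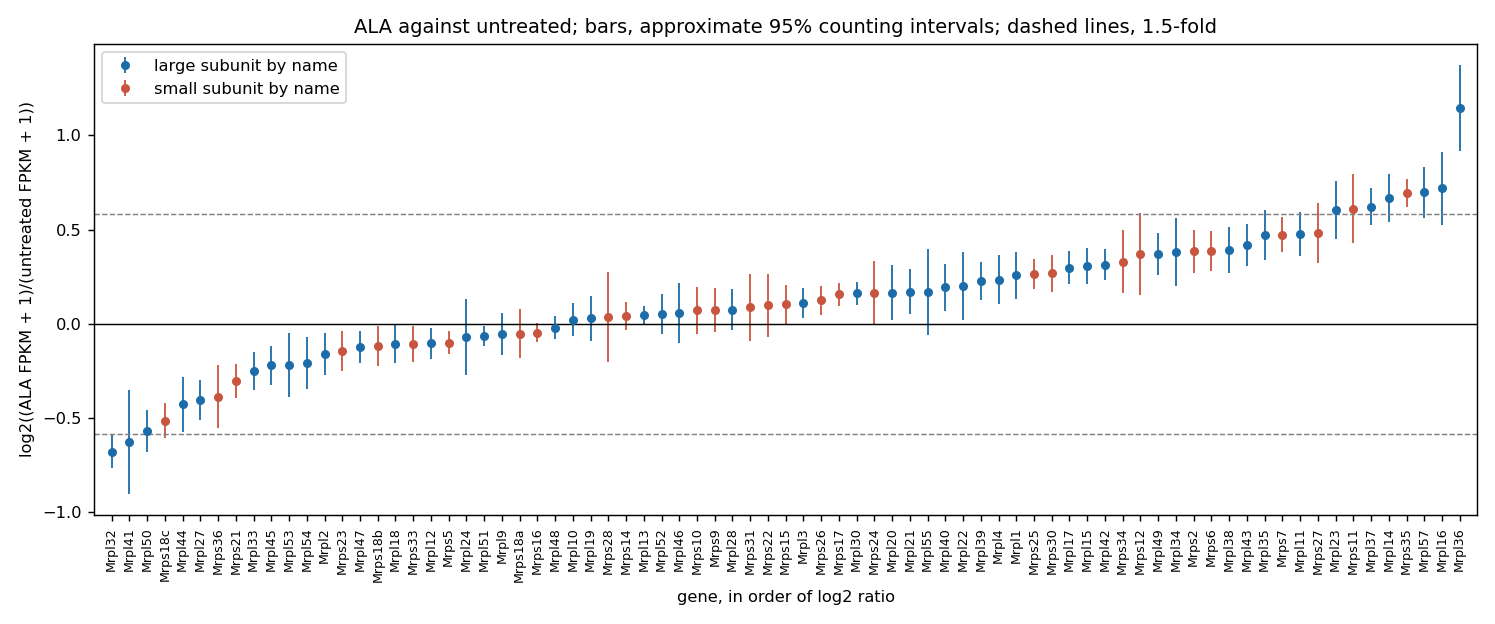
log2 ratio of ALA to untreated for each of the 77 genes in rising order, with large subunit names in blue and small subunit names in red. Bars are approximate 95% counting intervals and dashed lines mark 1.5-fold. The row runs from Mrpl32 at -0.68 to Mrpl36 at 1.14, and blue and red points are mixed along it.

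The counting intervals, which cover counting error only and rest on the estimated depth and on transcript length, lay above 0 for 36 of the 77 genes, below 0 for 21 and across 0 for 20. They do not cover variation between cultures. No intervals were computed for genes outside the 77, so these counts have no background beside them. They are not counts of changed genes. The half-width on the log2 scale had a median of 0.11 and ran from 0.05 for Mrpl13 to 0.27 for Mrpl41. Counting error thus varied from gene to gene. Without replicates, no smallest detectable difference with ALA can be given for any gene.

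By subunit name the counts and medians were as follows. Of the 48 with large subunit names 31 were higher and 17 lower, and the median log2 ratio was 0.13. Of the 29 with small subunit names 20 were higher and 9 lower, and the median was 0.10. The difference of the medians, large minus small, was 0.04, and no error can be given for it with 1 library per group. The spread was somewhat wider in the large subunit, with a standard deviation across genes of 0.37 against 0.28. Both genes at least 1.5-fold lower and 6 of the 8 at least 1.5-fold higher had large subunit names, as did 48 of all 77. Of the large subunit names 12.5% were higher and 4.17% lower by as much, and of the small 6.90% and 0%. Over all measured genes the shares were 5.90% and 7.16%. These counts are small, and the subunits were not tested against each other. With Mrps30 and Mrps18a moved to the large subunit and Mrps36 left out, the medians were 0.13 over 50 genes and 0.10 over 26, and the difference was 0.03.

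The summed level of the large subunit genes was 1882 FPKM untreated and 1996 FPKM with ALA, and that of the small subunit genes was 1092 and 1097 FPKM. The genes were also grouped by the class of the protein name, bacterial type (u or b) or mitochondrial-specific (m). Mrps18a and Mrps18b fall in the latter class by name, although they descend from a bacterial protein. In the large subunit by structure, 30 genes of bacterial type had a median log2 ratio of 0.16 with 21 higher. The 20 with mitochondrial-specific names had 0.05 with 11 higher. In the small subunit, 16 genes of bacterial type had a median of 0.09 with 12 higher. The 10 with mitochondrial-specific names had 0.11 with 7 higher.

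**Figure D3:**
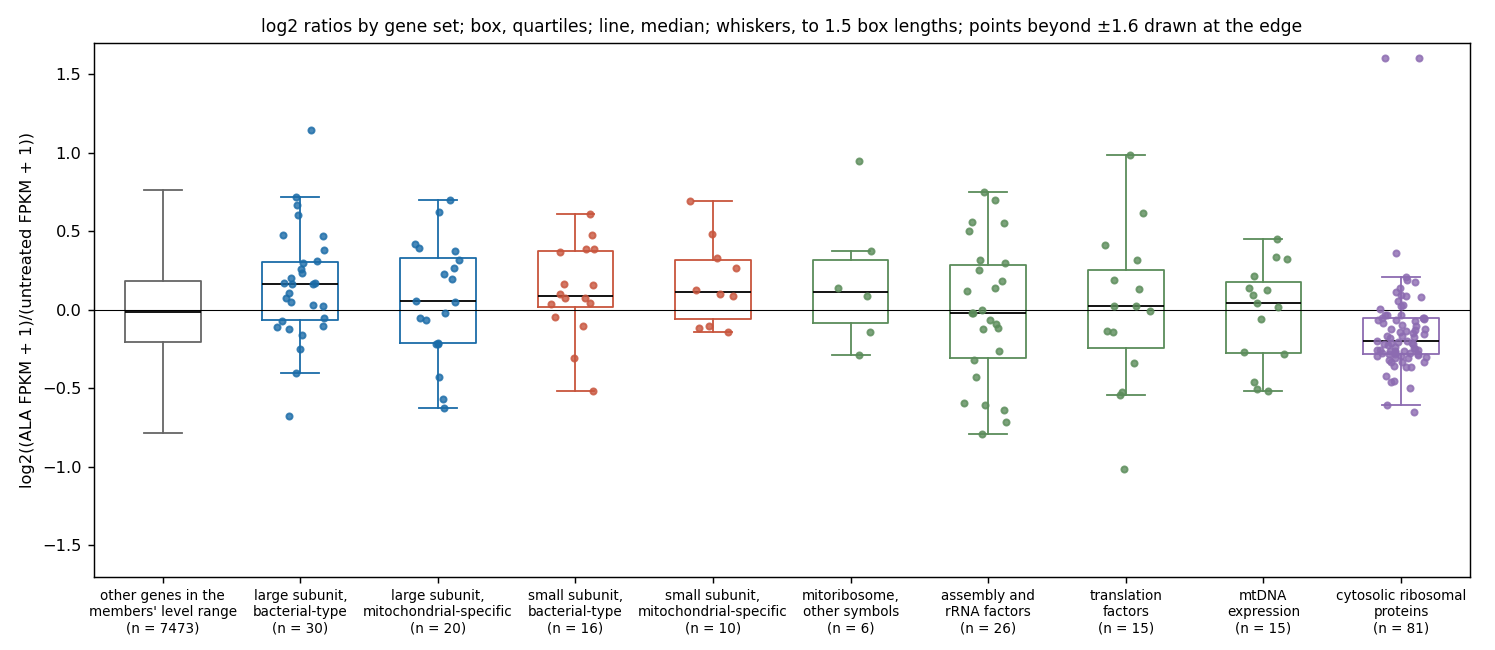
log2 ratios of ALA to untreated by gene set, with boxes at the quartiles, the median as a line, whiskers to 1.5 box lengths and 1 point per gene except in the first box. The 4 groups of mitochondrial ribosomal proteins, of 30, 20, 16 and 10 genes, have medians between 0.05 and 0.16, and cytosolic ribosomal proteins have a median of -0.20; 2 cytosolic genes beyond 1.6 are drawn at that edge.

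Among large subunit genes of bacterial type, Mrpl36 differed most. It encodes bL36m, a very small protein of the large subunit. Its level was 7.998 FPKM in untreated cells and 18.9 FPKM after ALA, a plain ratio of 2.36. The log2 ratio was 1.14, and the counting interval ran from 0.91 to 1.37. These values stand for about 162 and 550 reads. In GENCODE the gene lies on the plus strand of chromosome 13, from 73328513 to 73332178. Only 2.58% of its exon bases lie in another gene of the table, Ndufs6 on the opposite strand. Ndufs6, an accessory subunit of complex I, went the other way, at 79.7 FPKM untreated and 50.7 FPKM with ALA.

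Mrpl16, whose protein uL16m lies near the tRNA sites of the large subunit, had 9.68 and 16.6 FPKM, a log2 ratio of 0.72. Mrpl14 encodes uL14m at the face toward the small subunit and had 48.4 and 77.6 FPKM, a log2 ratio of 0.67. Mrpl23, whose protein uL23m lines the rim of the exit tunnel, had 28.2 and 43.4 FPKM, a log2 ratio of 0.60. These 3 were each higher in the ALA library, but Mrpl14 shares 11.2% of its exon bases with Tmem63b on the opposite strand. For Mrpl23, 67.1% of the 41-base stretches also occur in other genes, of which Mrpl23-ps1 shares the most. The protein of Mrpl11 is part of the base of the stalk that binds translation factors, and the gene had 10.9 and 15.6 FPKM, a log2 ratio of 0.48. Its stalk partners stayed near 0: Mrpl10 had 46.2 and 46.9 FPKM and Mrpl12 had 68.2 and 63.4 FPKM.

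The lowest ratio of all 77 belonged to Mrpl32, with 30.8 FPKM in untreated cells and 18.8 FPKM after ALA. The log2 ratio was -0.68, and the counting interval ran from -0.77 to -0.59. Its protein bL32m is known, from yeast and mouse, to be matured by the m-AAA protease before it joins the ribosome. Mrpl27, whose bacterial counterpart reaches into the peptidyl transferase centre, had 80.1 and 60.2 FPKM, a log2 ratio of -0.41. Mrpl33 was at -0.25. Of these, Mrpl27 and Mrpl33 share 46.6% and 31.7% of their 41-base stretches with other genes, and Mrpl32 shares 3.80%.

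Large subunit genes with mitochondrial-specific names also lay on both sides. Mrpl57 (mL63) had 7.93 and 13.5 FPKM, a log2 ratio of 0.70, and Mrpl37 (mL37) had 36.0 and 55.9 FPKM, a log2 ratio of 0.62. Both were higher with ALA, and neither shares 1% of its stretches with another gene. On the other side Mrpl41 had 10.5 and 6.44 FPKM, a log2 ratio of -0.63, from about 178 and 158 reads. Mrpl50 had 25.3 and 16.7 FPKM, a log2 ratio of -0.57. Mrpl44, whose protein has a ribonuclease III-like fold, had 21.4 and 15.7 FPKM, a log2 ratio of -0.43. Mrpl45, whose protein tethers the ribosome to the inner membrane, had 22.8 and 19.5 FPKM, a log2 ratio of -0.22. These 4 were lower in the ALA library, Mrpl41 with the widest counting interval, -0.90 to -0.35. Other genes hold 18.6% of the 41-base stretches of Mrpl41, 7.03% of those of Mrpl45, 6.21% of those of Mrpl44 and none of those of Mrpl50.

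Among small subunit genes the highest ratio was that of Mrps35, a protein added in mitochondria, with 21.5 FPKM in untreated cells and 35.4 FPKM after ALA. That is a log2 ratio of 0.69, and the counting interval ran from 0.62 to 0.77. Mrps11, whose bacterial counterpart lies on the platform that holds the messenger RNA, had 13.0 and 20.3 FPKM, a log2 ratio of 0.61. Mrps27, which carries the pentatricopeptide repeats typical of organelle RNA-binding proteins, had 9.57 and 13.8 FPKM, a log2 ratio of 0.48. Mrps35 and Mrps11 passed 1.5-fold and Mrps27 did not. Mrps27 shares 24.2% of its exon bases with 6430562O15Rik on the opposite strand, and Mrps11 shares 7.97% with Mrpl46. Of their 41-base stretches, 16.6% and 13.3% occur in other genes. The lowest small subunit gene was Mrps18c, at 99.4 and 69.2 FPKM, a log2 ratio of -0.52. Mrps21, at 170.1 and 137 FPKM, had -0.31.

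Mrps18a, Mrps18b and Mrps18c all descend from bacterial S18, yet only Mrps18c keeps that place in the ribosome. Their log2 ratios were -0.05, -0.12 and -0.52. All 3 were lower with ALA, but with equal library totals Mrps18a was higher, at 0.02, and Mrps18b was at -0.04. Other genes hold 64.0% of the 41-base stretches of Mrps18b, 29.6% of those of Mrps18c and none of those of Mrps18a. Mrps30, the other small subunit name found in the large subunit, had 16.1 and 19.5 FPKM, a log2 ratio of 0.27. Mrps36, the subunit of 2-oxoglutarate dehydrogenase, had 33.1 and 25.1 FPKM, a log2 ratio of -0.39. It shares 39.9% of its stretches with other genes, of which Mrps36-ps1 shares the most.

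In all, 34 of the 77 genes had at least 10% of their 41-base stretches or exon bases in common with another gene. Among the 43 with less, 32 (74.4%) were higher with ALA, 5 (11.6%) at least 1.5-fold, and the median log2 ratio was 0.16. Among the 34, 19 (55.9%) were higher, 3 (8.82%) at least 1.5-fold, and the median was 0.04. Over all measured genes 47.8% were higher, and 5.90% at least 1.5-fold. In the 43 the large subunit median was 0.19 and the small subunit median 0.09.

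Proteins of the mitochondrial ribosome that carry other symbols were looked up from a list. Of 6 such genes, 4 were higher and 2 lower, with a median log2 ratio of 0.11. Over all measured genes 47.8% were higher, and 5.90% were higher by 1.5-fold or more. Ict1, a peptidyl-tRNA hydrolase built into the large subunit, had 19.8 and 39.1 FPKM, a log2 ratio of 0.95, and was the only one of the 6 past 1.5-fold. Chchd1 was at 0.37, Ptcd3, a pentatricopeptide repeat protein of the small subunit, at 0.14, and the GTPase Dap3 at 0.08. Aurkaip1, on the lower side, was at -0.29.

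Factors that assemble the ribosome or modify its RNA went both ways, with 12 of 26 measured genes higher, 14 lower and a median of -0.02. The share higher was 46.2%, against 47.8% of all measured genes. Past 1.5-fold were Mtg1 and Ngrn on the higher side and 5 genes on the lower side, Malsu1, Rpusd3, Tfb1m, Rnmtl1 and Mterf3. That is 7.69% higher and 19.2% lower, against 5.90% and 7.16% of all measured genes. These counts are small and were not tested. Ftsj2 and Fastkd2, also higher, stayed below that mark at log2 ratios of 0.56 and 0.55, with plain FPKM ratios of 1.63 and 1.58. Mtg1, a GTPase of large subunit assembly, had 3.24 and 6.13 FPKM, a log2 ratio of 0.75. Ngrn, a factor for the large ribosomal RNA, had 14.7 and 24.4 FPKM, a log2 ratio of 0.70. Malsu1, whose protein binds uL14m on the immature large subunit, had 18.9 and 10.5 FPKM, a log2 ratio of -0.79, opposite in sign to Mrpl14. The rRNA methyltransferase genes Tfb1m and Rnmtl1 had log2 ratios of -0.64 and -0.61. Malsu1 shares 40.5% of its exon bases with Igf2bp3, and 37.2% of the stretches of Rpusd3 occur in other genes.

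Translation factors of mitochondria had 8 of 15 higher, or 53.3% against 47.8% of all measured genes, and a median of 0.02. Taco1, an activator of cytochrome oxidase subunit I translation, had 7.44 and 15.7 FPKM, a log2 ratio of 0.99, and the elongation factor Tsfm had 16.97 and 26.5 FPKM, a log2 ratio of 0.61. Its partner Tufm was at 0.32, but 69.9% of its stretches occur in other genes. Slirp had 101 and 49.6 FPKM, a log2 ratio of -1.01, but 97.8% of its exon bases lie inside Snw1, so its value is uncertain. Lrpprc, which acts in a complex with Slirp, had 23.5 and 31.5 FPKM, a log2 ratio of 0.41. Genes for mitochondrial DNA expression had 9 of 15 higher, a median of 0.04 and none past 1.5-fold. Of all measured genes 5.90% were higher and 7.16% lower by 1.5-fold or more. In a list of 15, none is not far from those shares. The largest differences there were Tfb2m at -0.52, Mgme1 at -0.50 and Polg2 at -0.46, and 41.0% of the stretches of Tfb2m occur in other genes.

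Regulators of mitochondrial biogenesis showed 4 of 10 measured genes higher, a median of -0.12 and none past 1.5-fold. Myc was at -0.36, Nrf1 at -0.35 and Esrra at 0.28, while Gabpa was at -0.08 and Yy1 at 0.14. Cytosolic ribosomal proteins, the nearest counterpart, had 66 of 81 measured genes lower with ALA and a median of -0.20. Such genes are known to have many processed pseudogenes. Genes named as nuclear complex I subunits, taken by symbol only, had 20 of 37 higher and a median of 0.05. Over all measured genes 47.8% were higher, 5.90% by 1.5-fold or more, and 7.16% were lower by as much. For the 10 regulators, none past 1.5-fold is not far from those shares. Differences between these sets were not tested.

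Many mitochondrial ribosomal protein genes start head to head with another gene. A RefSeq promoter was found for 68 of the 77. Of these, 27 had a start on the opposite strand within 1000 bases, or 39.7%, against 18.5% of 8722 other measured genes. By the outermost starts in GENCODE it was 34 of 77, or 44.2%, against 19.9% of measured genes. The neighbours were varied, and included a proteasome subunit (Psma2 with Mrpl32), a cytosolic ribosomal protein (Fau with Mrpl49) and a spindle and kinetochore protein (Ska3 with Mrpl57). Mrpl46 and Mrps11, a large and a small subunit gene, lie head to head 42 bases apart. Their log2 ratios were 0.06 and 0.61.

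The ratios of these genes and of their neighbours were barely related. Of 25 pairs in which the neighbour was measured, 15 had the same sign and 10 opposite signs, and the Pearson correlation of the log2 ratios was 0.04, a description across pairs within the same libraries. Mrps18c was at -0.52 and its neighbour Helq, a DNA helicase gene, at 0.96, from 1.90 to 4.63 FPKM. Mrpl32 was at -0.68 and Psma2 at 0.26. Mrpl49 was at 0.37 and Fau at -0.50. On the same side lay Mrps27 and Ptcd2, another pentatricopeptide repeat gene, at 0.48 and 0.50, and Mrpl50 and Zfp189 at -0.57 and -0.80. Mrpl36 and Ndufs6 are not among these pairs, because their RefSeq starts lie 2527 bases apart, although the outermost GENCODE starts lie 29 bases apart.

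**Figure D4:**
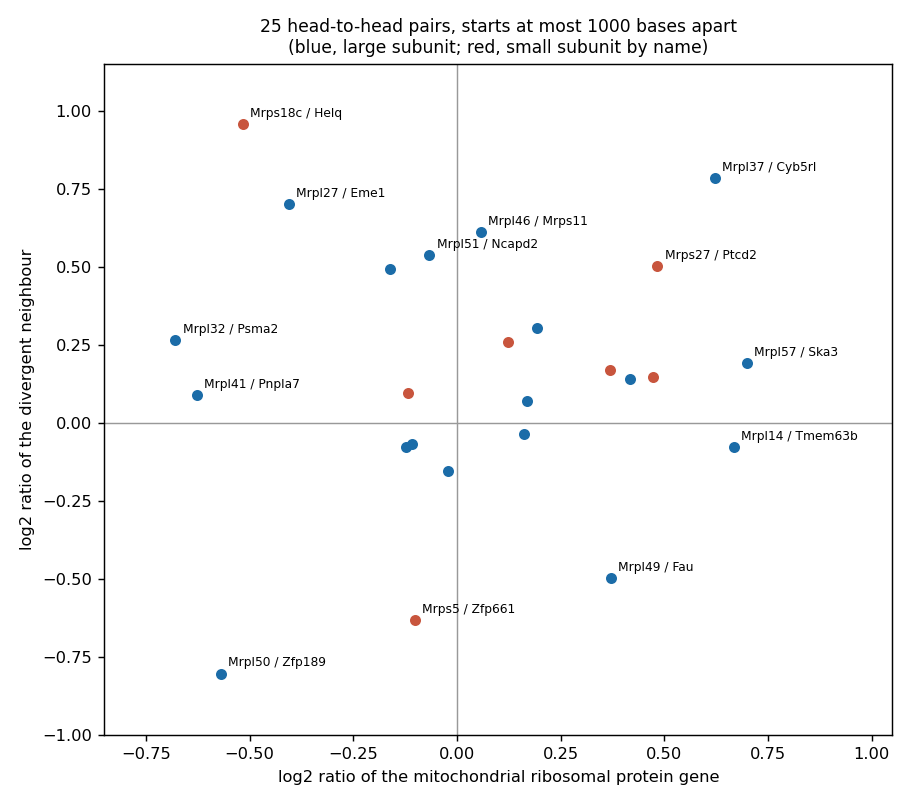
log2 ratio of each mitochondrial ribosomal protein gene (x axis) and of the gene that starts within 1000 bases on the opposite strand (y axis), for 25 pairs. Points fall in every combination of signs, with 15 pairs of the same sign and 10 of opposite sign.

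Promoter letters were compared over these 68 genes, counting any RefSeq window of a gene. The NRF1 site was found in 13, or 19.1%, against 12.5% of 8790 measured genes and 7.20% of all 17874 genes with a window. The ETS letters were found in 12, or 17.6%, against 10.1% and 5.73%. The YY1 letters were found in 8, or 11.8%, against 3.95% and 2.17%. The E-box was found in 5, or 7.35%, against 12.2% and 9.20%. At least 1 of the first 3 was present in 31 of 68 genes, or 45.6%, against 24.4% of measured genes.

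The 8 genes with YY1 letters were Mrpl35, Mrpl36, Mrpl37, Mrpl42, Mrps11, Mrps18a, Mrps24 and Mrps27. Of these 7 were higher with ALA, with a median log2 ratio of 0.48, against 0.07 for the 60 without. Their levels were also lower, with medians of 15.6 FPKM untreated and 20.5 FPKM with ALA. The genes without had 29.4 and 31.7 FPKM. Among the 77, genes of lower level had higher ratios, so level and YY1 letters cannot be told apart here. Outside the 77, 339 measured genes with the same letters had a median of 0.02 and 53.4% higher. The 13 genes with NRF1 letters had a median of 0.07 and the 12 with ETS letters 0.01, each near or below the genes without them, at 0.10 and 0.16. These values describe small groups and were not tested.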

How the data were processed

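RNA of NIH3T3 cells was made into TruSeq RNA libraries and read as single-end reads of 41 bases, per the labels' protocols. The deposited values are FPKM per gene, per the file headers. FastQC 0.11.5, TopHat2 2.1.1, Cufflinks 2.2.1 and mm10 are named in the submitters' processing notes. Options, annotation and library scaling were not given in the sources used here. The deposited lower and upper bounds, also in FPKM, were equal in 100% of rows and carry no error. The kit does not mark strand, so where 2 genes overlap on opposite strands their reads cannot be told apart.

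The log2 ratio uses a pseudocount of 1, which understates the change of low genes. Genes averaging 1 FPKM or more were counted. A count model was not used, since FPKM are not counts. Depth was estimated from values of 0.001 to 0.15 FPKM in genes with 1 transcript of over 800 bp (234 and 357 genes), as the depth at which FPKM times transcript length lay nearest to whole reads. The mean distance from whole reads there was 0.20 untreated and 0.21 with ALA, against medians of 0.25 and 0.27 over other depths. The fit is thus loose, and all read counts and intervals rest on it. Intervals (95%) follow from reads estimated with the longest transcript and cover counting error only. For short transcripts this length, and so the reads, may be too high. Gene models came from GENCODE M21 (GRCm38, the assembly of mm10), which held all 77 genes, and promoters from RefSeq on GRCm38.p6. Shared sequence is the share of 41-base stretches of the longest transcript that occur exactly in another gene's transcripts. The procedure was tested on data simulated with these depths and transcript lengths, which cannot show that the depth estimate is right. Python 3.11.15, numpy 2.4.6, pandas 2.3.3, scipy 1.17.1 and matplotlib 3.10.9 were used.

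The members and lists were chosen with earlier results of these data known. Named genes are the 10 highest and 10 lowest log2 ratios, the 5 highest and 5 lowest mean levels, all members past 1.5-fold, Mrps18a, Mrps18b, Mrps18c, Mrps30 and Mrps36, the neighbours of these, and in other lists those past 1.5-fold or the 3 largest. Mrpl10, Mrpl12, Mrpl49 with Fau, the genes with YY1 letters and further list members were named after their values were seen, for their role or pairing. Promoter motifs were also chosen with results known. Alternatives were other pseudocounts, filters and scalings, subunits by structure and genes with little shared sequence. The value of 1 gene of the list of other symbols is not reported here.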

Additional observations from a re-analysis of the deposited data

How the results depend on the processing

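The median log2 ratio of the 77 genes stayed above 0 under each alternative run (pseudocounts of 0.1 and 5, no filter, a mean of at least 5 FPKM, equal library totals, the median of all measured genes set to 0, subunits by structure and genes with little shared sequence), from 0.09 with a pseudocount of 5 to 0.18 with equal totals. Large minus small stayed between 0.03 and 0.10, the latter among the 43 genes with little shared sequence. With equal totals the median of all measured genes was 0.05 in place of -0.02, and Mrps18a passed from -0.05 to 0.02. Then 57 of the 77 genes were higher, against 56.9% of all measured genes. At least 1.5-fold lower was 1 of them, against 5.87% of all measured genes. A pseudocount of 5 left 3 genes past 1.5-fold on the higher side and 1 on the lower, since it shrinks all ratios; over all measured genes the counts went from 645 and 782 to 194 and 299. With a pseudocount of 0.1, 3 genes were past 1.5-fold on the lower side, where 9.49% of all measured genes were. Among the 43 genes with little shared sequence 32 were higher, 5 of them by 1.5-fold or more, and 1 was lower by as much, a count over fewer genes. Over all measured genes 47.8% were higher, 5.90% by 1.5-fold or more, and 7.16% were lower by as much. The medians of the 77 genes and of the large and small subunit genes kept their sign under these settings; the median of all measured genes did not, and other gene lists were not recomputed. No paired analysis was possible because each group has 1 library. Without replicates no library could be left out.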
